A study of Mus musculus with 59 samples.

Results

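The 9 genes described here belong to the extracellular matrix of the brain and were followed across cortex and hippocampus of mice carrying heterozygous alleles of Mrpl40, Slc25a1 or both. They are Acan, Bcan, Ncan, Vcan, Hapln1, Hapln4, Tnr, Tnc and Ptprz1. They were taken by symbol from the table of raw read counts, where they are 9 of 57180 gene rows, and each symbol matched 1 row. All 9 passed the filter on low counts in both tissues. Slc25a1 encodes the citrate carrier of the inner mitochondrial membrane and Mrpl40 a protein of the large mitochondrial ribosomal subunit, and both genes belong to the chromosomal interval whose human counterpart is lost in 22q11.2 microdeletion. Poly(A) RNA from 30 male mice was sequenced in 59 libraries, 30 of cortex and 29 of hippocampus, and 29 animals gave both tissues. The labelled genotypes were Mrpl40 +/+,Slc25a1 +/+ (wild type, 9 cortex and 8 hippocampus libraries), Mrpl40 +/+,Slc25a1 -/+ (Slc25a1 heterozygous, 7 and 7), Mrpl40 -/+,Slc25a1 +/+ (Mrpl40 heterozygous, 7 and 7) and Mrpl40 -/+,Slc25a1 -/+ (double heterozygous, 7 and 7). The labels name 1 animal for each library and give no age, strain or batch.

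The adult brain has little fibrillar collagen, and its matrix is built on hyaluronan, a long sugar polymer made at the cell surface. Proteoglycans of the lectican family (aggrecan, brevican, neurocan and versican) bind hyaluronan through one end, link proteins lock that contact, and tenascin-R ties the other ends of the lecticans together. In perineuronal nets this lattice condenses around the cell bodies of selected neurons, above all parvalbumin interneurons, and in the hippocampus also around pyramidal cells of area CA2. The nets form as critical periods close, and their enzymatic removal is known to restore plasticity.

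Library totals lay between 21443017 and 32120906 counts. The neocortex marker list (12 genes such as Tbr1) summed to between 1868 and 2508 CPM (read counts scaled to the library total, with TMM factors over all libraries) in cortex libraries and between 456 and 637 in hippocampus libraries. The hippocampus list (12 genes such as Prox1) summed to between 269 and 349 CPM in cortex and between 1157 and 2101 in hippocampus, and for both lists the ranges of the tissues did not meet. Slc25a1 transcripts fell into a low set and a high set in both tissues, and 6 animals (2 labelled wild type, 2 Slc25a1 heterozygous and 2 double heterozygous) went against their label. With groups as labelled, Slc25a1 was not called against wild type in any of them. In the Slc25a1 heterozygous group it differed by -0.53 ± 0.20 (log2 ± SE) in cortex and -0.53 ± 0.22 in hippocampus (edgeR adjusted p = 0.60 in hippocampus). In the double heterozygous group it differed by -0.61 ± 0.20 and -0.46 ± 0.22 (edgeR adjusted p = 0.25 and 0.93). Mrpl40 itself was not called in libraries labelled Mrpl40 heterozygous, with log2 fold changes against wild type of -0.04 ± 0.06 (SE) in cortex and -0.00044 ± 0.05 in hippocampus (edgeR adjusted p = 0.92 and 1.00). Genotypes are therefore given as labelled throughout. In 4 hippocampus libraries marker sums stood apart: choroid plexus markers in Mrpl40 heterozygous library 5 and double heterozygous library 6, cerebellar and thalamic markers in Slc25a1 heterozygous library 3, and a low hippocampus sum with a high neocortex sum in wild-type library 8. The choroid plexus and cerebellar sums exceeded 2 times the tissue median. Wild-type library 8 was added outside that rule, with 1157 CPM against a median of 1738 for hippocampus markers and 637 against 538 for neocortex markers.

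The 4 lecticans differed widely in abundance. Levels are compared between genes as CPM per kilobase of annotated exon, with means ± SD over the 30 cortex and 29 hippocampus libraries. Brevican (Bcan), the shortest lectican, was the most abundant member, at 64.4 ± 4.4 in cortex and 80.8 ± 8.0 in hippocampus. Neurocan (Ncan) followed at 39.4 ± 1.5 and 39.0 ± 2.3. Versican (Vcan), made largely by glia, was far lower at 0.86 ± 0.07 and 1.22 ± 0.16. Aggrecan (Acan), the lectican most closely tied to perineuronal nets, was the lowest lectican in both tissues, at 0.66 ± 0.11 and 0.67 ± 0.13.

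Among the partners of the lecticans, the link protein Hapln4 reached 32.7 ± 3.8 CPM per kilobase in cortex and 18.7 ± 6.0 in hippocampus. The link protein Hapln1 stood at 4.47 ± 0.36 and 6.56 ± 0.89. Tenascin-R (Tnr), a matrix glycoprotein made by oligodendrocyte lineage cells and some neurons, measured 10.1 ± 0.7 and 14.6 ± 1.0. Tenascin-C (Tnc), its relative of developing tissue and astrocytes, was lowest of all in cortex at 0.36 ± 0.11 and reached 1.26 ± 0.20 in hippocampus. Ptprz1, a receptor phosphatase whose secreted splice form is the proteoglycan phosphacan, measured 14.0 ± 1.0 and 19.0 ± 1.7. Gene counts do not separate the forms. In the annotation used for lengths, 3.44% of the exon bases of Tnr and 2.26% of those of Tnc overlap an exon of an antisense gene, and whether the counting used strand is not stated.

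In cortex the order per kilobase was Bcan, Ncan, Hapln4, Ptprz1, Tnr, Hapln1, Vcan, Acan and Tnc. Of the neighbours in that order, Ncan was above Hapln4 in 29 of 30 libraries, Vcan above Acan in 28 and Acan above Tnc in 29, and their ranges over libraries overlapped. The other cortex neighbours had ranges that did not meet. In hippocampus Hapln4 moved down and Tnc moved up, which gave Bcan, Ncan, Ptprz1, Hapln4, Tnr, Hapln1, Tnc, Vcan and Acan. There Ptprz1 was above Hapln4 in 20 of 29 libraries, Hapln4 above Tnr in 22 and Tnc above Vcan in 16, so these neighbours could not be put in order beyond their spread. Vcan was above Acan in 29 of 29, with ranges that overlapped.

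**Figure D1:**
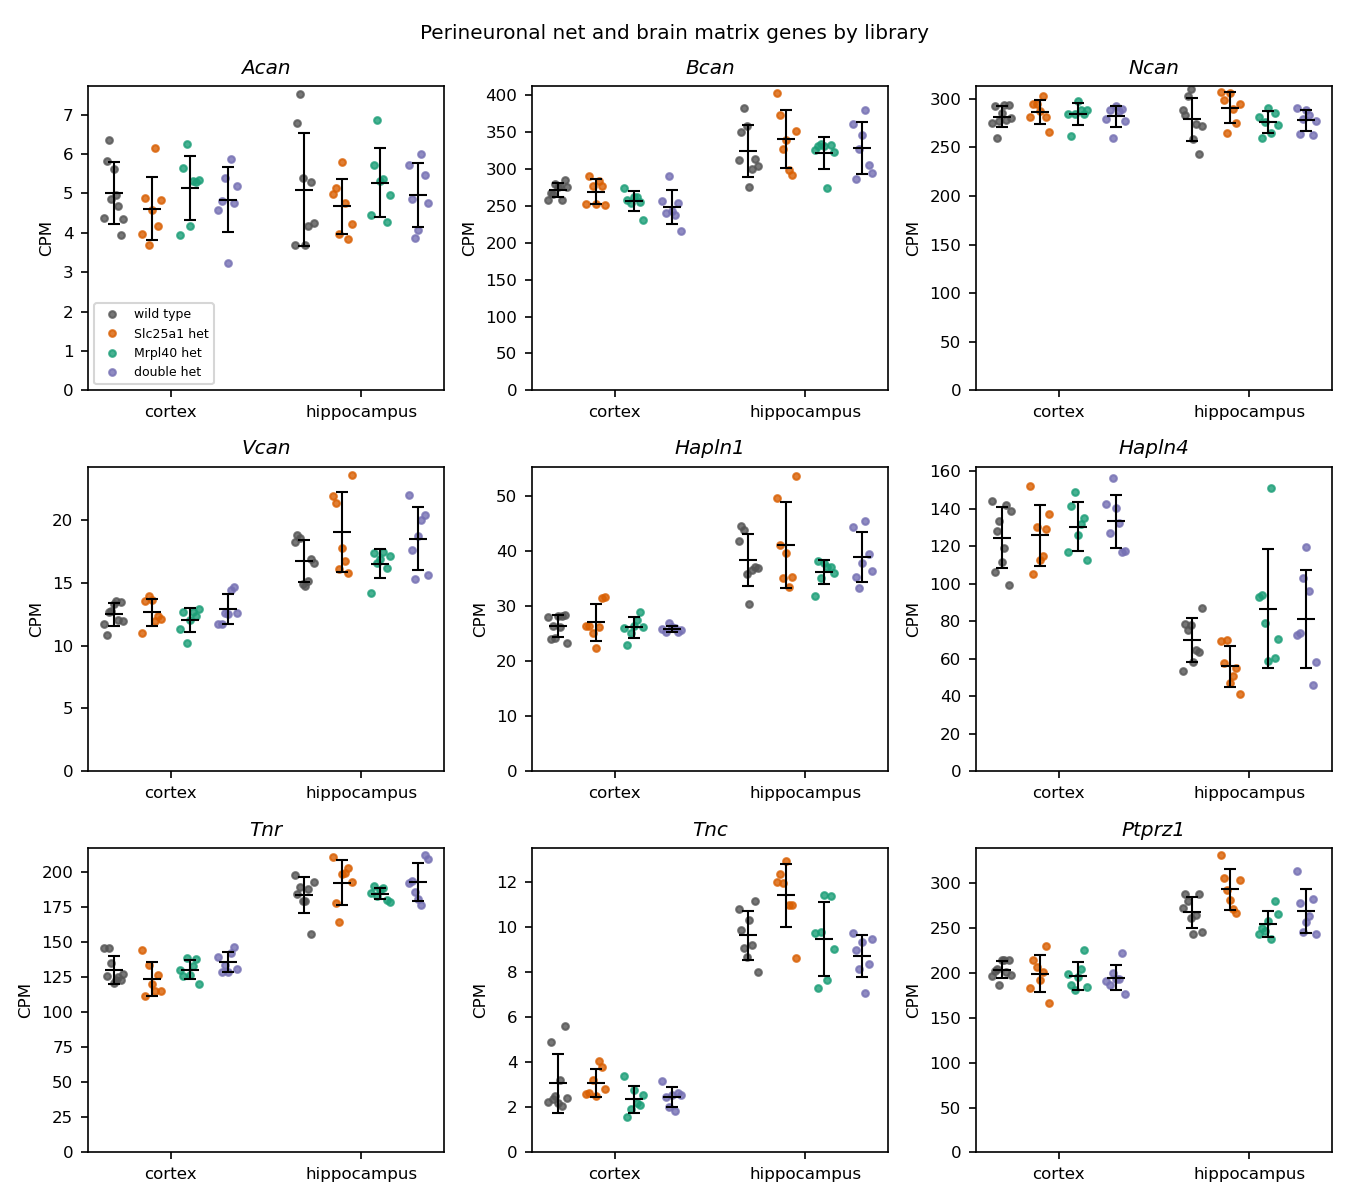
CPM (y axis, from 0) of each gene in every library of cortex and hippocampus, coloured by labelled genotype, with bars for the mean and SD of each group. Tnr, Tnc and Ptprz1 libraries of hippocampus all sit above the cortex libraries, 26 of 29 Hapln4 libraries of hippocampus sit below every cortex library, and the genotype groups overlap.

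The first comparison was between the 2 tissues. In wild-type animals 6 of 9 members were higher in hippocampus and Hapln4 was lower, by edgeR's quasi-likelihood test with the animal as a block. Over all genes tested 60.6% passed the same threshold, so a count of 7 of 9 is close to what the tissues show in general. The median log2 difference of the members was 0.38 and that of all genes 0.01. The same 7 members passed in the same directions in Slc25a1 heterozygous (60.4% of all genes), Mrpl40 heterozygous (60.3%) and double heterozygous animals (57.5%). In whole tissue, fewer cells of a type and less RNA per cell cannot be told apart.

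Tnc had the largest tissue difference. Its cortex libraries ran from 1.57 through a median of 2.53 to 5.63 CPM and its hippocampus libraries from 7.07 through 9.72 to 12.9, with no overlap. The log2 difference in wild type was 1.66 ± 0.11 (SE), a 3.15-fold higher level in hippocampus (edgeR adjusted p = 1.0e-14). In the other labelled genotypes it was 1.88 ± 0.12, 2.01 ± 0.13 and 1.83 ± 0.13. Cortex Tnc rested on as few as 50 counts in a library, and its SD over wild-type libraries was 1.31 CPM around a mean of 3.06. The smallest differences within an animal, 0.98 and 1.13 on the log2 scale, came from the wild-type animals 8 and 2, whose cortex libraries held the highest Tnc, 5.63 and 4.91 CPM. Cortex library 8 also had the highest sum of fibroblast and meningeal markers in its tissue, 106.5 CPM against a median of 44.3. Cortex library 2 had the highest sum of hippocampus markers, 348.90 against a median of 292. A Slc25a1 heterozygous cortex library came close at 348.81, and no library of that group had Tnc above 4.06 CPM. The part of these marker transcripts in the Tnc level was not tested.

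Hapln4, a link protein of perineuronal nets, was the only member called lower in hippocampus. Cortex libraries ran from 99.5 through 129.6 to 156 CPM and hippocampus libraries from 41.2 through 70.2 to 151. Of the 29 hippocampus libraries 26 lay below every cortex library, and 28 of 29 animals had the lower value in hippocampus. In wild type the log2 difference was -0.82 ± 0.12 (SE), or 0.57-fold (edgeR adjusted p = 2.1e-06). The exception was the Mrpl40 heterozygous animal 22 (library 5 of its group), with 151 CPM and a difference of 0.20. Its hippocampus library also had the highest parvalbumin interneuron marker sum of its tissue (1734 CPM against a median of 1326), the lowest neocortex sum and the lowest astrocyte sum. That library also stood apart by its choroid plexus markers. Of the 12 markers listed for parvalbumin interneurons, which include Gad1, Gad2 and Slc32a1, 11 were lower in wild-type hippocampus. Pvalb itself differed by -1.75 ± 0.19 on the log2 scale (edgeR adjusted p = 9.2e-09). Over all genes 60.6% were called in this comparison and 50.7% lay above 0. The sum of these markers ran from 1723 to 2324 CPM in cortex and from 1107 to 1734 in hippocampus, and none of them was at 0 in any library. Their part in the Hapln4 difference was not tested.

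Hapln1, the other link protein among the members, went the opposite way. It ran from 22.4 through 26.2 to 31.7 CPM in cortex and from 30.4 through 37.2 to 53.8 in hippocampus, where 28 of 29 libraries lay above every cortex library. In wild type the log2 difference was 0.54 ± 0.07 (SE; edgeR adjusted p = 1.2e-07), and all 29 animals were higher in hippocampus. The other pair of link protein genes was measured too: Hapln2, of nodes of Ranvier, differed by 0.23 ± 0.19 and did not pass, and Hapln3 rose by 0.36 ± 0.14 (edgeR adjusted p = 0.029).

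Tnr ran from 111 through 129 to 146 CPM in cortex and from 156 through 188 to 212 in hippocampus, so that the tissues did not overlap. Its log2 difference in wild type was 0.51 ± 0.04 (SE; edgeR adjusted p = 1.7e-12). Ptprz1 also separated the tissues in every library, with 166 to 230 CPM (median 198) in cortex and 238 to 331 (median 266) in hippocampus. Its difference in wild type was 0.38 ± 0.05 (SE; edgeR adjusted p = 6.7e-08).

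The lecticans split. Vcan rose from a range of 10.2 to 14.6 CPM (median 12.5) in cortex to 14.1 to 23.5 (median 17.1) in hippocampus, by 0.40 ± 0.07 on the log2 scale in wild type (edgeR adjusted p = 1.3e-05). Bcan rose from 216 to 290 CPM (median 260) to 274 to 403 (median 327), by 0.24 ± 0.06 (edgeR adjusted p = 0.00057), and 28 of 29 animals were higher in hippocampus. Ncan showed no call: 260 to 303 CPM (median 285) in cortex, 244 to 310 (median 281) in hippocampus, and a difference of -0.03 with a 95% interval of -0.10 to 0.05. Acan showed none either, at 3.24 to 6.36 (median 4.84) against 3.68 to 7.51 (median 4.95), with a difference of -0.02 and a wider interval of -0.23 to 0.19. Acan rested on 79 to 185 counts a library. Its coefficient of variation was 16.1% in cortex and 19.7% in hippocampus, beside a counting error of 8.62% and 8.66%, and differences inside that interval could not be told from 0.

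Several of these genes are known from glia, so glial and meningeal markers were read beside them. The counts of called markers stand beside 60.6% of all genes called in the same comparison. In wild type 5 of 12 astrocyte markers were higher and 1 lower in hippocampus, with sums over all libraries from 4662 to 5720.3 CPM in cortex and from 4999.9 to 7339 in hippocampus. Of 12 oligodendrocyte precursor markers 5 were higher and 1 lower, with sums of 320 to 400 and 319 to 460.1 CPM. Among fibroblast and meningeal markers 5 of 10 were higher and none lower, with sums of 18.3 to 106.5 and 55.3 to 131 CPM. Of 12 mature oligodendrocyte markers none was called by edgeR and all 12 had a log2 difference above 0 (median 0.30), as did 50.7% of all genes. The sums of these 12 were 1702 to 4281 CPM (median 2497) in cortex and 2090 to 4904 (median 2926) in hippocampus. No marker of these 4 lists was at 0 in any library, and their part in the rises of Tnc, Vcan, Hapln1, Bcan, Ptprz1 and Tnr was not tested.

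**Figure D2:**
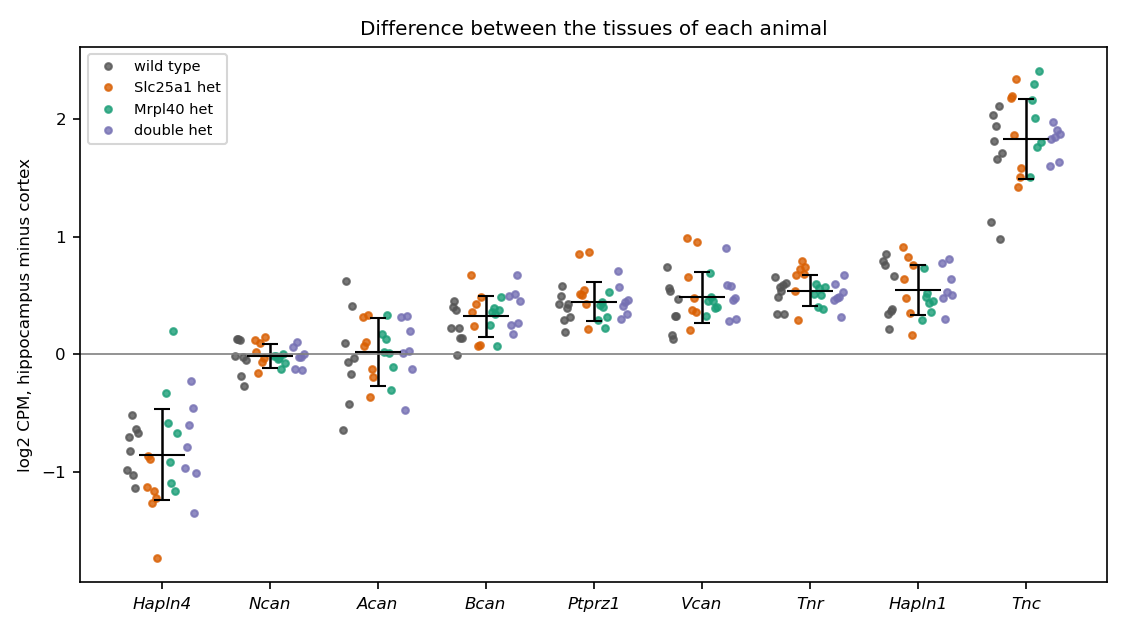
Hippocampus minus cortex on the log2 CPM scale (y axis) for each of 29 animals, by gene and labelled genotype, with bars for the mean and SD over all animals. Tnc stands highest at a mean of 1.83, Hapln4 is below 0 in 28 animals, and Ncan and Acan scatter around 0.

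Other matrix genes were grouped by role and read in the same wild-type comparison, in which 60.6% of all genes were called. Of 4 further link proteins and tenascins, 2 rose in hippocampus, led by Tnxb at 3.59 ± 0.11 (log2 ± SE), a tenascin of connective tissue, and Tnn fell at -1.59 ± 0.31. Of 16 other proteoglycans and matrix proteins 6 rose and 6 fell, among them Lamb1, a laminin chain of basement membranes, at 1.98 ± 0.10, Dcn (decorin) at 1.17 ± 0.32, Spock1 (testican) at -0.67 ± 0.17 and Cspg5 (neuroglycan C) at -0.41 ± 0.05. Of 10 tested genes of hyaluronan synthesis and turnover 3 rose and 2 fell, with the hyaluronan-binding gene Cemip at 1.23 ± 0.11, the hyaluronidase gene Hyal3 at 0.75 ± 0.27, the receptor Cd44 at 0.57 ± 0.15, the hyaluronan receptor gene Hmmr at -0.90 ± 0.27 and the synthase Has1 at -0.60 ± 0.17.

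The enzymes that make and sulfate chondroitin chains, the sugar side chains of lecticans and phosphacan, changed in both directions. Of 21 tested, 11 rose and 6 fell, among them the sulfotransferases Ust at 1.75 ± 0.07 and Chst7 at 1.34 ± 0.16 the chain polymerase Chsy3 at -1.01 ± 0.12 and the linker enzyme gene B3gat3 at -0.43 ± 0.05. Of 17 proteases and inhibitors 8 rose and 6 fell. Proteases of the ADAMTS family, which include the lectican-cleaving aggrecanases, were on both sides, with Adamts9 at 2.28 ± 0.19, Adamts1 at 1.27 ± 0.06, Adamts5 at -1.11 ± 0.15 and Adamts15 at -1.18 ± 0.11. Of 22 receptors and binding partners 5 rose and 13 fell. The risers were led by the neuronal pentraxin Nptx1 at 1.33 ± 0.11 and by Crtac1 at 0.49 ± 0.09. The fallers included Sema3a, a repulsive guidance protein that perineuronal nets hold, at -4.03 ± 0.19, the synaptic pentraxin Nptx2 at -2.78 ± 0.20, and Ptprs and Ptprf, receptors for chondroitin sulfate proteoglycans, at -0.34 ± 0.04 and -0.57 ± 0.06. Each gene named with its value here passed edgeR's threshold. The lists' median differences were 0.29, 0.14, 0.14, 0.16, 0.12 and -0.23 in the order given, beside 0.01 for all genes.

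The second question was whether the members differed between the labelled genotypes. None of the 9 was called in any of 12 genotype comparisons, 6 in each tissue, by edgeR's quasi-likelihood test with all 4 genotypes of a tissue in one fit. DESeq2's Wald test and limma on the deposited normalized counts called 0 as well. At an unadjusted p under 0.05 there were 3 of 54 tests in cortex and 7 of 54 in hippocampus, or 5.56% and 13.0%, against 7.21% and 6.39% of tests over all genes. The 54 tests share genes and groups, and all 7 in hippocampus involve the Slc25a1 heterozygous group. The 13.0% is therefore not a count of separate results. Few genes of any kind were called. In cortex the share was 0% for Slc25a1 heterozygous against wild type, 0.0294% for Mrpl40 heterozygous and 0.0686% for double heterozygous. It was 0.0588% for double against Slc25a1 heterozygous, 0.00490% for double against Mrpl40 heterozygous and 0% for the interaction, the departure of the double from the sum of the single effects. In hippocampus the same 6 shares were 0%, 0.00496%, 0.00992%, 0%, 0% and 0%. A member's count of 0 is therefore near the background in every one of them.

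The intervals show what size of difference between the labelled groups these libraries leave room for. They include the animals whose Slc25a1 level went against the label, so they do not bound the effect of an allele. Ncan, the most precisely measured, had 95% intervals against wild type between -0.07 and 0.09 on the log2 scale over the 3 cortex comparisons and between -0.11 and 0.15 in hippocampus. Those of Tnc in cortex ran from -0.78 to 0.40 over the 3 comparisons, and those of Hapln4 in hippocampus from -0.72 to 0.70. On simulated counts with the spread of these libraries, the double heterozygous comparison recovered 43.3% of genes changed 1.2-fold in cortex and 28.4% in hippocampus, and 74.6% and 77.6% of genes changed 1.5-fold. The simulation changed 67 genes of any abundance at each of these folds, with independent noise between genes. The real comparisons called 14 genes in cortex and 2 in hippocampus. More true changes ease the adjusted threshold, so these shares cannot be read as the power for a member.

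**Figure D3:**
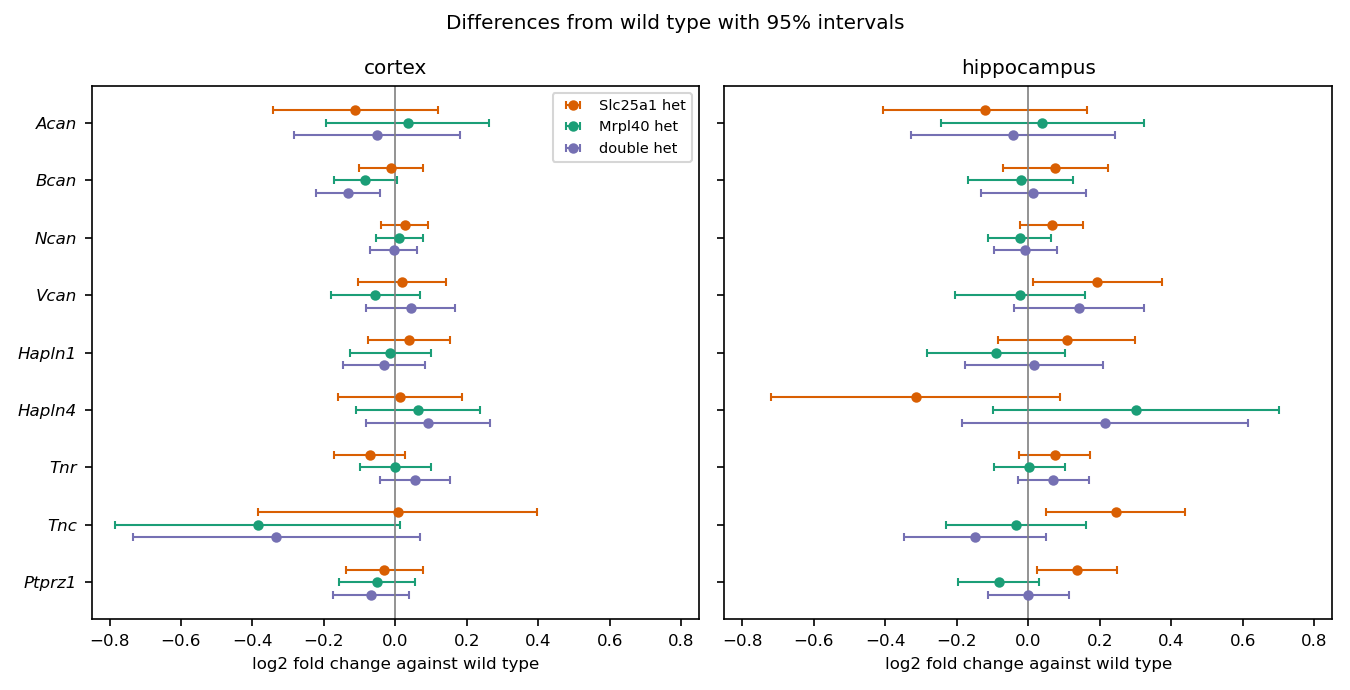
Log2 fold change of each labelled heterozygous group against wild type (x axis) with 95% intervals from edgeR, for cortex and hippocampus. Cortex Bcan in the double heterozygous group and hippocampus Vcan, Tnc and Ptprz1 in the Slc25a1 heterozygous group have intervals clear of 0, and none passes after adjustment over all genes.

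The members nearest to the threshold in cortex were Bcan and Tnr. Bcan ran from 257 through 276 to 284 CPM in wild type, from 251 through 277 to 289.9 in Slc25a1 heterozygous, from 230.2 through 258 to 273 in Mrpl40 heterozygous and from 216 through 243 to 290.1 in double heterozygous libraries. The ranges overlap, and the highest single library is also double heterozygous. Against wild type the double heterozygous difference was -0.13 ± 0.04 (log2 ± SE; edgeR adjusted p = 0.23), and against Slc25a1 heterozygous -0.12 ± 0.05 (edgeR adjusted p = 0.34). The astrocyte sum was 4983 ± 193 CPM (SD, n = 7; range 4665 to 5241) in double heterozygous and 5184 ± 218 (n = 9; 4850 to 5536) in wild-type cortex, with 0 of 12 markers called and all 12 below wild type. The microglia sum was 368 ± 16 (344 to 393) and 402 ± 24 CPM (366 to 456), with 1 of 12 markers called, lower. Of all genes 48.6% lay above wild type and 0.0686% were called in that comparison, and markers of 1 list are not separate observations where they move together. The part of these markers in the Bcan level was not tested. Tnr ran from 111 through 119.7 to 144 CPM in Slc25a1 heterozygous and from 128 through 134 to 146 in double heterozygous libraries, a difference of 0.13 ± 0.05 (edgeR adjusted p = 0.39).

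In hippocampus the Slc25a1 heterozygous group held the highest mean of Tnc, Ptprz1, Vcan, Hapln1, Bcan and Ncan. It also held the highest mean sum of astrocyte markers, 6445 ± 699 CPM (SD, n = 7; range 5546 to 7339) against 5991 ± 398 in wild type (n = 8; 5433 to 6755), 5608 ± 353 in Mrpl40 heterozygous and 5917 ± 483 in double heterozygous libraries. The mean sums of microglia (444 against 418 CPM in wild type), endothelial and pericyte (414 against 397) and oligodendrocyte precursor markers (389 against 381) were highest there as well. None of the 12 markers of any of these 4 lists was called against wild type by edgeR, and 9 to 11 of each 12 lay above it, as did 51.9% of all genes. The part of these markers in the member levels was not tested. Tnc ran from 8.01 through 9.52 to 11.1 CPM in wild type, from 8.63 through 11.9 to 12.9 in Slc25a1 heterozygous, from 7.30 through 9.75 to 11.4 in Mrpl40 heterozygous and from 7.07 through 8.96 to 9.72 in double heterozygous libraries. Of the 7 Slc25a1 heterozygous libraries only library 7, at 8.63 CPM, fell inside the double heterozygous range. The difference of double from Slc25a1 heterozygous was -0.39 ± 0.10 (log2 ± SE; edgeR adjusted p = 0.25), that of Slc25a1 heterozygous from wild type 0.25 ± 0.10 (edgeR adjusted p = 0.58), and the interaction -0.36 ± 0.14 (edgeR adjusted p = 1.00). Ptprz1 ran from 266 to 331 CPM (median 293) in Slc25a1 heterozygous against 244 to 288 (median 268) in wild-type libraries, a difference of 0.14 ± 0.06 (edgeR adjusted p = 0.59), and double against Slc25a1 heterozygous gave -0.14 ± 0.06 (edgeR adjusted p = 0.50). For Vcan the ranges were 15.8 to 23.5 (median 17.7) and 14.8 to 18.8 (median 16.7), a difference of 0.19 ± 0.09 (edgeR adjusted p = 0.61).

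Hapln4 in hippocampus gave the largest difference in size among the 12 comparisons. It ran from 53.6 through 70.0 to 87.1 CPM in wild type, from 41.2 through 55.2 to 70.2 in Slc25a1 heterozygous, from 58.9 through 78.9 to 151 in Mrpl40 heterozygous and from 46.0 through 73.6 to 119.7 in double heterozygous libraries. The SD was 11.6, 10.9, 31.7 and 26.1 CPM in these groups. Double against Slc25a1 heterozygous gave 0.53 ± 0.20 (log2 ± SE; edgeR adjusted p = 0.48). Acan, the net-forming lectican, stayed between group means of 4.61 and 5.14 CPM in cortex and 4.67 and 5.27 in hippocampus, with group SDs of 0.70 to 1.43.

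Whether a genotype effect differed between the tissues was tested in the paired fit. No member was called in the 3 such comparisons, where 0%, 0% and 0.0234% of all genes were called for the Slc25a1 heterozygous, Mrpl40 heterozygous and double heterozygous effects. Of 27 member tests 3 (11.1%, against 5.62% of tests over all genes) had an unadjusted p under 0.05 in edgeR: Hapln4 at -0.37 ± 0.18 and Ptprz1 at 0.17 ± 0.08 for the Slc25a1 heterozygous effect, and Tnc at 0.35 ± 0.17 for the Mrpl40 heterozygous effect (edgeR adjusted p of 0.83, 0.82 and 0.84). No gene of the 6 further matrix lists was called in any genotype comparison or tissue difference of one.

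The third view was how the members varied together from animal to animal. Log2 CPM values were taken as deviations from the mean of the labelled genotype, and 72 pairs (36 in each tissue) were tested by permuting animals within genotype. With both Pearson's r and Spearman's rho 10 pairs passed after Benjamini-Hochberg adjustment, 4 in cortex and 6 in hippocampus. In hippocampus all 6 were positive and joined Bcan, Ncan, Vcan, Hapln1 and Ptprz1. In cortex 2 were positive and 2 negative, and no pair passed in both tissues. Bcan and Ptprz1, which passed in cortex, had nearly the same r in hippocampus, 0.56 (rho 0.52), where the adjusted permutation p was 0.039 for r and 0.051 for rho (n = 29). The share of pairs that pass among all genes was not computed, so 10 of 72 is not read as particular to the members. Genes outside the set reached r of up to 0.94 with a member (Fstl5 with Hapln4 in hippocampus).

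Vcan and Hapln1 were the closest pair, with r = 0.89 in hippocampus (rho 0.90, permutation p = 1e-05 for both, the smallest the permutations can give, adjusted 0.00072, n = 29). Without the 2 animals farthest from the median of Vcan r was 0.87. In cortex the same pair had r = -0.02 (rho 0.06, permutation p = 0.92 and 0.78, adjusted 0.99 and 0.89, n = 30). The difference between the tissues in r was not tested. In hippocampus Vcan ran with Hapln1 from 14.1 and 31.9 CPM in Mrpl40 heterozygous library 1 to 23.5 and 53.8 in Slc25a1 heterozygous library 7. That last library also had the highest astrocyte marker sum of its tissue, 7339 CPM against a median of 5904, the highest microglia and endothelial sums, and the lowest parvalbumin sum, 1107 CPM.

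Vcan and Hapln1 are neighbours in the genome. In RefSeq annotation of GRCm38.p6 they lie on chromosome 13 with 0 protein-coding genes between them, Vcan on the minus and Hapln1 on the plus strand. The other lecticans also stand beside a link protein gene with 0 protein-coding genes between: Acan beside Hapln3 on chromosome 7, Bcan beside Hapln2 on chromosome 3 and Ncan beside Hapln4 on chromosome 8. Ncan and Hapln4, the other pair with both genes among the members, had r = 0.01 in hippocampus (rho -0.02, n = 29). In cortex they moved in opposite directions, with r = -0.56 (rho -0.63, permutation p = 0.0022 and 0.00069, adjusted 0.023 and 0.0098, n = 30).

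The 250 bases before the annotated start of Vcan and of Hapln1 are shown because these 2 neighbours were the closest pair in hippocampus. They come from RefSeq on GRCm38.p6, a build other than the GRCm39 named in the submitters' processing notes, and read 5′ to 3′ on the strand of the gene. Vcan covers chr13:89742513-89742762 on the minus strand and Hapln1 chr13:89540386-89540635 on the plus strand. Capitals mark matches on either strand to the TATA box letters TATAAA, the CCAAT box and the GC box letters GGGCGG.
Vcan: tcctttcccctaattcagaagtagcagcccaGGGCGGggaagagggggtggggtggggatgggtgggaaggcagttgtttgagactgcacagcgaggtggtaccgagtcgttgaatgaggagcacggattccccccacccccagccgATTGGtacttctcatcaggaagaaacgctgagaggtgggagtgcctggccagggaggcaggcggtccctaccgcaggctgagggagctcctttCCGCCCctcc
Hapln1: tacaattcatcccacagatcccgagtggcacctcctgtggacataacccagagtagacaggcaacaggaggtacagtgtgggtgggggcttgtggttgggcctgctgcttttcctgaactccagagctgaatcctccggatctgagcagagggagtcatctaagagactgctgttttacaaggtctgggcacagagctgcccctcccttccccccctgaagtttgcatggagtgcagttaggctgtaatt
The Vcan window holds GGGCGG 2 times and CCAAT once, on the minus strand at -103, and it is richer in G and C, at 62.4% against 54.4% for Hapln1 and a median of 52.0% over all promoters. The Hapln1 window holds none of these, and neither window holds the AP-1 letters. Over the 27025 RefSeq promoter windows of the same length, TATAAA is found in 13.0%, CCAAT is found in 34.5%, GGGCGG is found in 32.9% and TGANTCA, searched as the AP-1 letters, in 6.87%. A match is a string of letters in the window and was not read as a site in use. RefSeq entries were found for 8 of the 9 members. Of the other 6, GGGCGG stands in the windows of Acan, Bcan, Ncan, Tnc and Ptprz1, CCAAT in those of Acan and Bcan, and TATAAA in those of Ncan and Tnc.

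**Figure D4:**
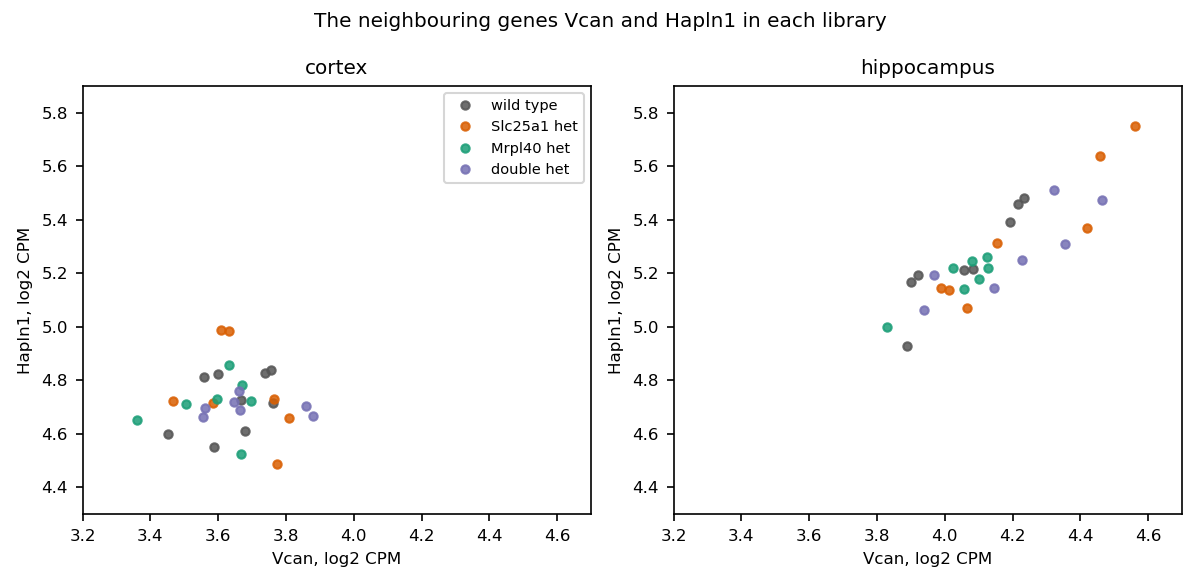
Log2 CPM of Vcan (x axis) and Hapln1 (y axis) in each library of cortex and hippocampus, coloured by labelled genotype, on the same axes. The hippocampus libraries lie along a line and the cortex libraries form a cloud, mostly at lower values of both genes.

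Vcan and Hapln1 were also tied to Ptprz1 in hippocampus, with r = 0.70 (rho 0.72, permutation p = 0.00013 and 0.00014, adjusted 0.0047 and 0.0034) and r = 0.64 (rho 0.64, permutation p = 0.00050 and 0.00078, adjusted 0.0090 and 0.0098). Bcan went with Ncan at r = 0.66 (rho 0.71), with Hapln1 at 0.66 (rho 0.63) and with Vcan at 0.54 (rho 0.57). In cortex Bcan went with Ptprz1 at r = 0.55 (rho 0.63) and Ncan with Tnc at 0.51 (rho 0.56), while Hapln4 and Tnc were opposed at -0.58 (rho -0.52). Without the 2 animals farthest from the median of the first gene of a pair, the 8 positive pairs had r between 0.44 and 0.87 and the 2 negative ones -0.59 and -0.56. With the 6 animals of contrary Slc25a1 level left out, 5 pairs passed: Vcan with Hapln1 (r = 0.90) and Bcan with Ncan (0.66) in hippocampus and Ncan with Tnc (0.57) and Hapln4 with Tnc (-0.63) in cortex among the 10, and also Tnr with Hapln4 in cortex (0.69). The 6 pairs that no longer passed had r of similar size in these fewer animals: Vcan with Ptprz1 0.73, Hapln1 with Ptprz1 0.67, Bcan with Hapln1 0.57 and Bcan with Vcan 0.52 in hippocampus, and Bcan with Ptprz1 0.56 and Ncan with Hapln4 -0.58 in cortex. Without the 4 hippocampus libraries that stand apart 12 pairs passed, all 10 among them, with Acan and Bcan (0.60) and Bcan and Ptprz1 (0.61) in hippocampus as the others.

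**Figure D5:**
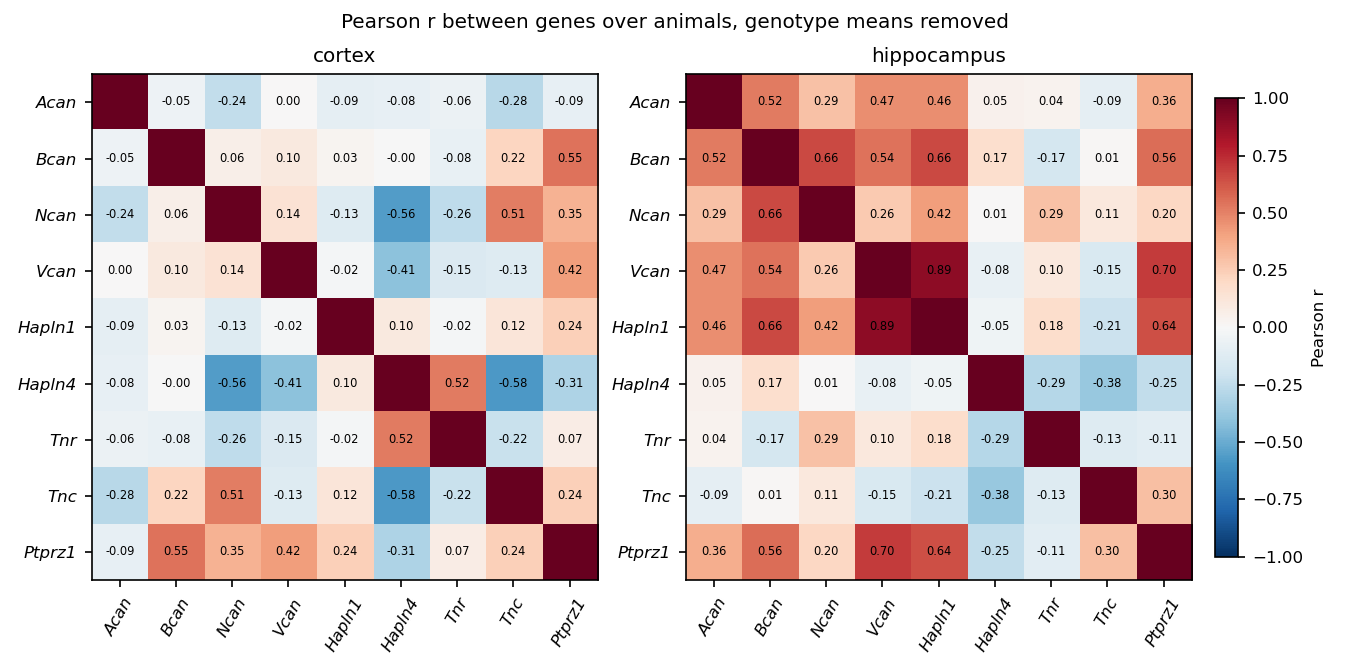
Pearson's r between the 9 genes over animals after removal of the labelled genotype means, for cortex (30 animals) and hippocampus (29 animals), on a colour scale from -1 to 1. The hippocampus panel has a block of positive values joining Bcan, Vcan, Hapln1 and Ptprz1, with 0.89 for Vcan and Hapln1. With the genes of that block Acan had r of 0.36 to 0.52 and Ncan of 0.20 to 0.66. No pair with Acan passed with both coefficients. The cortex panel has no such block.

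Part of the members' variation ran with marker sums of cell types. Of 198 pairs of a member and a marker list, 28 passed by permutation within genotype with both coefficients after Benjamini-Hochberg adjustment. The share of all genes that pass with the same sums was not computed, so this count is not read as particular to the members. The astrocyte sum went with Ptprz1 in cortex at r = 0.88 and in hippocampus at 0.77, and with Bcan at 0.64 and 0.81. In hippocampus it went with Hapln1 at 0.73 and with Vcan at 0.65, and the sums of oligodendrocyte precursor, microglia and endothelial markers did so for the same 4 genes at r from 0.53 to 0.75. Hapln4 in hippocampus went with the parvalbumin sum at r = 0.71 (0.53 without the 2 libraries farthest from the median sum) and against the neocortex sum at -0.65. Tnr in hippocampus went with the hippocampus sum at 0.65, which fell to 0.33 without the 2 farthest libraries. Tnc in cortex went with fibroblast and meningeal markers at 0.63 and hippocampus markers at 0.57, and against parvalbumin markers at -0.60. Acan and Ncan passed with no list in either tissue. These sums and the members come from the same libraries, and their part in the correlations between members was not tested.

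Genes with patterns most like each member are given as a description, from 10405 genes in hippocampus and 10389 in cortex whose mean log2 CPM reached 3. Hapln4 in hippocampus was most like Fstl5 (r = 0.94), Sv2b (0.94) and Sult4a1 (0.93) over 29 libraries, and in cortex most like Tspyl4 (0.84) over 30. Bcan was most like the transporter gene Slc7a2 there (0.89) and the neurotensin receptor gene Ntsr2 in cortex (0.84). Ptprz1 was most like Itga6 (0.85), Reep3 (0.85) and Pdgfra (0.85), the growth factor receptor that marks oligodendrocyte precursors, in hippocampus and like Slc1a2, the astrocytic glutamate transporter gene, in cortex (0.87). Vcan and Hapln1 were each other's nearest gene in hippocampus. In cortex they were nearest to Rnf20 (0.72) and Arhgap5 (0.75). Acan was nearest to Padi2 in hippocampus (0.81) and Nacc2 in cortex (0.72), Ncan to Slc25a23 (0.85) and Mark2 (0.79), Tnr to Plxna4 (0.78) and Zfp37 (0.81), and Tnc to Smyd3 (0.70) and Col23a1 (0.82).

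Over 29 animals and 9 tests, no member had a correlation between cortex and hippocampus levels that passed after Benjamini-Hochberg adjustment. Tnc had the highest correlation between the tissues (r = 0.48, rho 0.48, permutation p = 0.011 and 0.014, adjusted 0.098 and 0.10), followed by Hapln4 (r = 0.40, rho 0.44, permutation p = 0.030 and 0.022, adjusted 0.13 and 0.10). Without the 2 farthest animals r was 0.39 and 0.44. For Vcan and Hapln1, whose hippocampus levels went together, r between the tissues was -0.07 and 0.03.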

How the data were processed

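Poly(A) RNA of cortex and hippocampus was sequenced in 59 stranded, paired-end libraries, per the labels' protocols. The submitters' processing notes name FastQC, HISAT2, featureCounts and DESeq2 with the genome build GRCm39. Versions, annotation and strand setting are not stated there. The authors deposited raw read counts per gene (57180 rows) and, per tissue, a signal table in which each count is divided by 1 factor per library. Rows with a blank symbol hold 0.885% to 2.13% of the counts and were kept in the totals.

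Library totals of 21443017 to 32120906 counts limit precision most for Tnc and Acan. Genotypes were compared within a tissue by edgeR 4.0.16 (TMM, filterByExpr, robust quasi-likelihood test, false discovery rate 0.05 over all genes), with 20394 genes in cortex and 20162 in hippocampus. Tissues were compared over 58 libraries of 29 animals with the animal as a block, since both libraries carry 1 animal number. Same-animal libraries had correlated deviations over genes, with a median r of 0.055. The SE of a log2 fold change was derived from the test's F statistic, and the fold changes are shrunken slightly by edgeR's prior count. CPM used TMM factors over all 59 libraries, log2 CPM a prior count of 2, and lengths the exon union of GENCODE vM21. Correlations used 100000 permutations of animals within genotype (Python 3.11.15, numpy 2.4.6). The fits were tested on simulated counts.

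Alternatives were no filter, DESeq2 1.42.0 (size factors, and its Wald test), limma 3.58.1 on the deposited signal as log2 of the value plus 1, a length trend, a block on the replicate number within a tissue, no animal block between tissues, only the genotypes compared, and leaving out doubtful animals or libraries. Named genes are the 9 members, members with an unadjusted p under 0.05, the 2 with the largest change in each direction of every further matrix list, and, of the 3 most alike genes of each member, at least the nearest. Cd44, Hapln2, Ptprs, Ptprf, Pvalb, Mrpl40 and Slc25a1 were named outside that rule after their values were seen. The members and lists were chosen with earlier results of these data known.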

Additional observations from a re-analysis of the deposited data

Results flagged for a closer look

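In 6 of 72 groups (9 genes in 8 groups of libraries) the lowest library lay far from the others, by a gap that chance gives in about 1 of 20 groups. Tnr in wild-type hippocampus was 156 CPM in library 8, with the next at 179, and that library also had the lowest hippocampus and highest neocortex marker sums of its tissue. Bcan in Mrpl40 heterozygous hippocampus was 274 CPM in library 5, with the next at 323, and that library had the lowest astrocyte sum of its tissue, 4999.9 CPM, and the highest Hapln4. It also stood apart by its choroid plexus markers. Vcan in Mrpl40 heterozygous hippocampus was 14.1 CPM in library 1, with the next at 16.2. Tnc in Slc25a1 heterozygous hippocampus was 8.63 CPM in library 7, with the next at 11.0. In cortex, Acan was 3.24 CPM in double heterozygous library 4, with the next at 4.59, and Ncan was 261 CPM in Mrpl40 heterozygous library 2, with the next at 284.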

How the results depend on the processing

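Over 19 comparisons, the number of members called was the same in each of 162 alternatives run, and 0 members were called in the 106 that concern genotype within a tissue. Of 405 recomputed values of single members 398 kept their direction and side of the threshold and 7 turned sign, all of members that were not called. Without the 6 animals that go against their Slc25a1 label, Ncan between tissues was 0.0079 in wild type, and Acan was 0.079 in wild type, -0.059 in Slc25a1 heterozygous and -0.0020 in double heterozygous animals, on the log2 scale. Without wild-type hippocampus library 8 Ncan was 0.014, without the animal block Acan was 0.020 in wild type, and with the length trend Acan was -0.00028 in Slc25a1 heterozygous animals. The cause was not tested. The number of correlated pairs, 10 as reported, was 5 without the 6 animals, where 24 cortex and 23 hippocampus libraries remained and the 6 lost pairs had r of 0.52 to 0.73 in size (0.54 to 0.70 with all animals), and that alternative was chosen after seeing the data.

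Replicate numbers within a tissue do not mark shared animals. Same-numbered libraries of 2 genotypes had a median r of 0.019 over 42 pairs in cortex and 0.015 over 39 in hippocampus, and 18 of 84 and 12 of 78 comparisons were highest with the same number. The count that chance gives was not computed, and whether same-numbered libraries share another factor was not tested. With the replicate number as a block, cortex Bcan in double heterozygous against wild type was -0.13 ± 0.04 (edgeR adjusted p = 0.35) and hippocampus Tnc in double against Slc25a1 heterozygous -0.39 ± 0.09 (edgeR adjusted p = 0.15), and the block changed no call of a member. Over all alternatives the adjusted p of these 2 values ran from 0.16 to 0.65 and from 0.12 to 0.63. Counts as low as 50 for Tnc and 79 for Acan limit their precision.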
